A study of Drosophila melanogaster with 144 samples.

Results

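The repressor genes of the Drosophila melanogaster circadian clock are period (per) and timeless (tim), and they are the 2 rows described here of the 17381 genes in the deposited count table. They were found by their FlyBase symbols in a release 6 annotation. per (FBgn0003068) lies on chromosome X from 2685580 to 2692780 on the plus strand and has 4527 bp of exon sequence when all isoforms are merged. tim (FBgn0014396) lies on chromosome 2L from 3493986 to 3508119 on the minus strand and has 7039 bp. The last exon of per overlaps the gene dyw (X from 2692732 to 2693886, minus strand), which has its own row. Reads from that overlap are uncertain because the strand setting used in counting was not given in the sources used here. On the minus strand of tim lies a small nucleolar RNA gene and on its plus strand a long noncoding RNA gene, and neither is in the count table.

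In the fly clock, the transcription factors Clock (CLK) and Cycle (CYC) switch on per and tim. The proteins PER and TIM accumulate with a delay, bind each other, enter the nucleus and shut CLK and CYC off, which lowers the RNA of both genes again. Light destroys TIM through the photoreceptor protein Cryptochrome, and kinases and phosphatases set how long PER and TIM last. In heads, much of the clock RNA comes from the photoreceptors of the compound eye and from glia, next to the small set of clock neurons in the brain.

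The samples were 144 libraries of poly(A) RNA from heads of virgin adults, 3 for each line, sex and circadian time. The first line was DGRP_892, from a panel of inbred wild-derived lines (the Drosophila Genetic Reference Panel), which the labels describe as having a long circadian period. The second was Canton-S B, described as having a 24 h period, and the labels set w1118, a null allele of the eye pigment gene white, before its name. All flies spent 3 days under 12 h of light and 12 h of dark, followed by 3 days in constant darkness, and heads were frozen every 2 h from circadian time (CT) 2 to 24, with 150 heads pooled in each library. Flies were entrained in 2 incubators with opposite light cycles, and the match of times to incubators was not given in the sources used here. CT is the time the labels state. The labels mention no adjustment of it to the period of a line, and 12 times over 24 h cannot measure a period. The whole procedure was run 3 times, and replicates carry the numbers 1 to 3.

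Gene counts per library ran between 11.66 M and 37.34 M (M, 1000000 counts; median 15.235 M). The 48 deeper libraries (25.45 M or more) comprised 22 of DGRP_892 and 26 of Canton-S B, and the 96 shallower ones (18.01 M or fewer) 50 of DGRP_892 and 46 of Canton-S B. Every library gave at least 446 per reads and 4380 tim reads, so counting error was small beside the spread between libraries. Levels below are counts per 1000000 gene counts after TMM scaling (CPM), and in bulk heads fewer cells of a type and less RNA per cell cannot be told apart.

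tim RNA was the more abundant of the pair in every library. Over all 144 libraries tim ranged from 291 to 686 CPM with a median of 478, and per ranged from 32.7 to 194 CPM with a median of 81.6. Per kb of exon the levels ran from 7.23 to 42.7 CPM for per and from 41.3 to 97.4 CPM for tim. The ratio of per to tim reads ran from 0.0988 to 0.312. per was also the more variable gene: its coefficient of variation over the libraries was 22.9% in DGRP_892, against 38% in Canton-S B, and that of tim was 9.74% in DGRP_892 and 14.6% in Canton-S B.

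The time courses show where that variation lies. In Canton-S B, per was low through the subjective day and high from CT14 on. At CT8 its level was 41.4, 62.3 and 58.5 CPM in the 3 male libraries and 32.7, 39.9 and 38.1 CPM in the 3 female libraries of Canton-S B. At CT18 it was 141.3, 120.2 and 140.1 CPM in the male libraries of that line and 124.7, 78.5 and 111.6 CPM in the female ones. All 6 libraries at CT18 were above all 6 at CT8. The 2 times were picked by their means from these same libraries, which makes a separation more likely. The share of all genes with such a separation was not computed. In DGRP_892 the same times lay closer together. At CT8, DGRP_892 males gave 69.9, 84.6 and 89.3 CPM of per and females 80.9, 57.2 and 52.1 CPM. At CT18, DGRP_892 males gave 108.5, 95.7 and 96.2 CPM and females 88.6, 114.8 and 123.6 CPM. The DGRP_892 libraries of the 2 times touched: the lowest at CT18, 88.6 CPM, was just below the highest at CT8, 89.3 CPM. These 2 times are the lowest and highest by mean of Canton-S B, not of DGRP_892. At the lowest and highest times of DGRP_892, CT12 and CT16, its libraries did not overlap (59.3 to 89.2 CPM and 91.1 to 193.5 CPM). These times too were picked by their means from the same libraries. The 193.5 CPM came from a single library, and the others at CT16 ran from 91.1 to 106.6 CPM. At CT18, next by mean in DGRP_892, the lowest library (88.6 CPM) was below the highest at CT12 (89.2 CPM).

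Ordered by mean, per in DGRP_892 was highest at CT16 (114.6 ± 39.2 CPM) and lowest at CT12 (70.3 ± 10.4 CPM; SD, n = 6 each). In Canton-S B it was highest at CT18 (119.4 ± 23.1 CPM) and lowest at CT8 (45.5 ± 12.0 CPM). tim in DGRP_892 was highest at CT18 (576 ± 46.1 CPM) and lowest at CT8 (500.2 ± 51.5 CPM). In Canton-S B tim was highest at CT22 (470.4 ± 85.6 CPM) and lowest at CT10 (357 ± 52.6 CPM). In both genes and both lines each of the 11 neighbouring times in that order overlapped, and none of the gaps between them exceeded the larger of the 2 SDs, so the order of single times is not resolved.

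**Figure D1:**
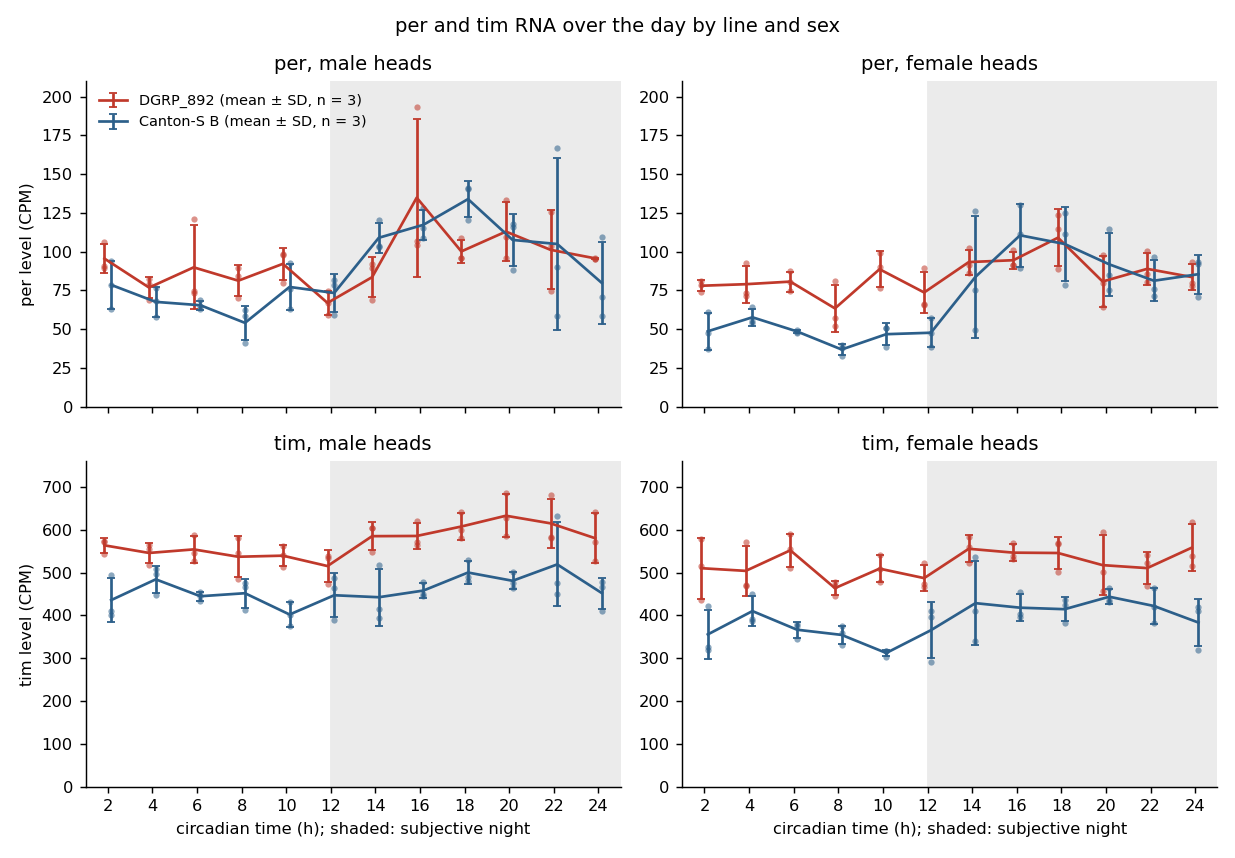
RNA level in CPM (y axis, from 0) of per (upper panels) and tim (lower panels) against circadian time in h, in male (left) and female (right) heads; points are libraries, lines join means and bars are SDs (n = 3). per in Canton-S B is lowest at CT8 and highest at CT16 to CT18 while the DGRP_892 curve is flatter, and the mean of tim in DGRP_892 lies above that of Canton-S B at every time in both sexes.

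A 24-h cosine was fitted to each line and sex, and its amplitude is the log2 distance from the mean to the peak of the curve. For a line, the cosine and sine coefficients of its sexes were averaged first, so sexes peaking apart would lower its amplitude. The rhythm of per in Canton-S B had the third lowest p of the 10894 genes tested. Its amplitude was 0.58 with a peak at CT 18.7 h (adjusted p = 3.63e-18, edgeR quasi-likelihood test), where 6.01% of all genes passed 0.05. In DGRP_892 the amplitude of per was 0.20 with a peak at CT 18.8 h, and the test gave an adjusted p of 0.0539, just short of the threshold, where 0.477% of all genes passed. That call turned with the processing: it passed with DESeq2 size factors (adjusted p = 0.0398), without the filter on low counts (0.0208), in DESeq2 (0.0350), with the run of library numbers as a covariate (0.0278) and without replicate 1 (0.0290), at amplitudes of 0.20 to 0.26. Without replicate 3 the amplitude was 0.15 (adjusted p = 0.53).

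tim had a shallow rhythm in Canton-S B, with an amplitude of 0.12 and a peak at CT 20.2 h (adjusted p = 0.000581). In DGRP_892 its amplitude was 0.08 with a peak at CT 20.0 h (adjusted p = 0.218). The tim rhythm in Canton-S B fell short of the threshold without replicate 1 (adjusted p = 0.0577), in the deeper libraries alone (0.0974) and with spike-in scaling (1.0). In the shallower libraries alone the amplitude was 0.13 (adjusted p = 0.0212).

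Within the sexes, per passed in Canton-S B males (amplitude 0.51, adjusted p = 6.44e-08) and females (0.66, adjusted p = 2.72e-12), where 4.62% and 3.52% of genes passed. With spike-in scaling the female call was lost (0.58, adjusted p = 0.636) and the male one held (0.62, adjusted p = 0.0491). In DGRP_892 the amplitudes were 0.23 in males (adjusted p = 0.14, and 0.0455 without the filter on low counts) and 0.18 in females (adjusted p = 0.689), where 2.29% and 0.119% of genes passed. For tim, Canton-S B females passed (0.15, adjusted p = 0.00517), though not without replicate 1 or replicate 3 (adjusted p = 0.149 and 0.0891), with spike-in scaling (0.97) or in either depth class alone (0.566 deeper, 0.0911 shallower), and Canton-S B males had 0.09 (adjusted p = 0.197). DGRP_892 males and females had tim amplitudes of 0.11 and 0.05 (adjusted p = 0.18 and 0.753). The curves of males and females were not shown to differ in shape: sex by time gave a difference of 0.06 for per (adjusted p = 0.887) and 0.03 for tim (adjusted p = 0.865), where 0.413% of genes passed. A 12-h component added to the curve, which passed in 0.257% of genes in DGRP_892 and 0.0551% in Canton-S B, passed in neither member and neither line, with amplitudes for per of 0.08 in DGRP_892 (adjusted p = 0.798) and 0.13 in Canton-S B (adjusted p = 0.475).

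The time course of per itself differed between the lines. The difference of the 24-h coefficients had a size of 0.38 (adjusted p = 0.00409), the third lowest p of all genes, where 0.156% of genes passed. The same test gave 0.04 for tim (adjusted p = 0.957). For per the call held in the shallower libraries alone (0.47, adjusted p = 0.00583) and without replicate 3 (0.45, adjusted p = 0.00484). It was lost without replicate 1 (0.32, adjusted p = 0.328), without replicate 2 (0.37, adjusted p = 0.141), in the deeper libraries alone (0.43, adjusted p = 0.917) and with spike-in scaling (0.46, adjusted p = 0.999).

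To see the same quantity library series by library series, a cosine was fitted to each of the 12 series of 12 libraries that share a line, a sex and a replicate number. The per amplitudes in DGRP_892 were 0.14, 0.29 and 0.34 in the 3 male series and 0.09, 0.20 and 0.29 in the 3 female series. In Canton-S B they were 0.42, 0.61 and 0.52 in males and 0.79, 0.55 and 0.66 in females. Each DGRP_892 series was below each Canton-S B series, a separation in that direction that 0.395% of all genes showed. The means were 0.22 ± 0.10 in DGRP_892, against 0.59 ± 0.13 in Canton-S B (SD, n = 6 each), a difference of -0.37 (two-sided exact permutation test over all splits of the 12 series, p = 0.0022, the smallest it can give; adjusted p = 0.0087 over 20 line comparisons of such measures). With spike-in scaling the difference was -0.23 (exact p = 0.0866). Males alone gave -0.26 and females alone -0.48, where 3 series against 3 cannot go below an exact p of 0.10.

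The fitted peak of per did not separate the lines. Its mean was CT 18.6 ± 2.32 h in DGRP_892, against CT 18.6 ± 1.20 h in Canton-S B (SD, n = 6 each; exact permutation p = 0.950). Single series peaked between CT 15.0 and 22.1 h in DGRP_892 and between CT 16.98 and 19.9 h in Canton-S B, and the cosine explained shares of variance between 0.103 and 0.625 in DGRP_892 and between 0.358 and 0.896 in Canton-S B. For tim the amplitudes were 0.10 ± 0.03 in DGRP_892, against 0.13 ± 0.04 in Canton-S B (exact p = 0.225), and the peaks were CT 20.1 ± 3.28 h and CT 20.3 ± 1.76 h (exact p = 0.883). The differences of the means, 0.06 h for per and -0.22 h for tim, were small beside these SDs, which does not show that the lines peaked at the same time.

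**Figure D2:**
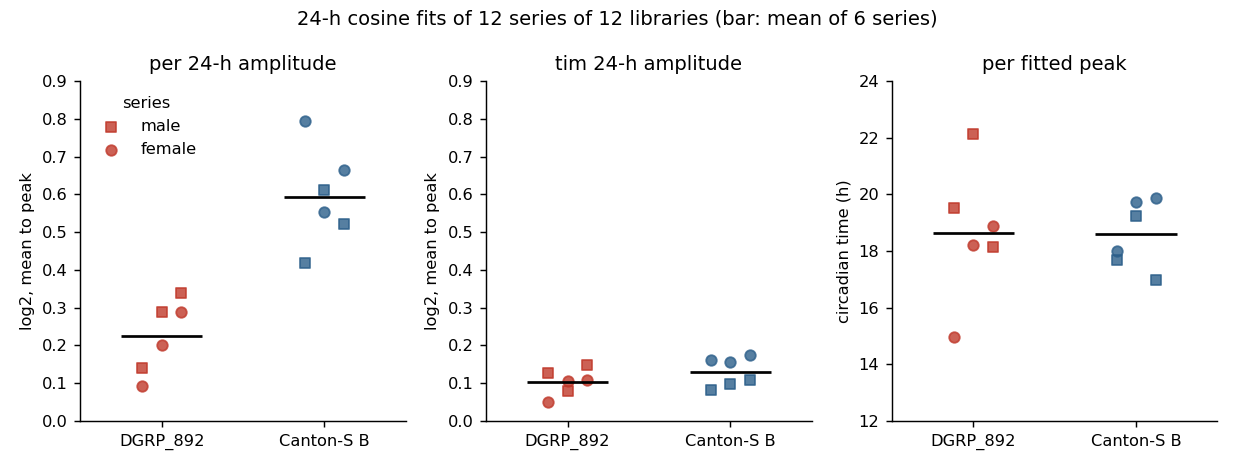
Amplitude (log2, mean to peak) of the 24-h cosine of per (left) and tim (middle) and fitted peak time of per (right, circadian time in h) in each of the 12 series of 12 libraries, DGRP_892 left and Canton-S B right in each panel; squares are male and circles female series, bars the mean of 6. The per amplitudes run from 0.09 to 0.34 in DGRP_892 and from 0.42 to 0.79 in Canton-S B without overlap, while the tim amplitudes and the per peaks overlap.

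In each series the fitted amplitude of per was larger than that of tim. A fitted amplitude cannot be negative and grows with the spread between libraries. Relative to the mean, that spread was wider for per than for tim at each time in both lines. The tests of this amplitude difference therefore cannot tell a wider rhythm from a wider spread. The amplitude of per exceeded that of tim in 12 of 12 series, by a mean of 0.29 (two-sided exact sign-flip permutation test, p = 0.0005, the smallest it can give; adjusted p = 0.0029 over 12 comparisons). By line the excess was 0.12 ± 0.08 in DGRP_892, against 0.46 ± 0.10 in Canton-S B (6 of 6 series each; exact p = 0.0312 each, the smallest 6 series allow; adjusted p = 0.0625). The peak time of per minus that of tim averaged -1.56 h and ran from -9.50 to 3.34 h, and 4 of 12 series had per later (exact p = 0.171).

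The level of tim was higher in DGRP_892 than in Canton-S B throughout the day. Over all times tim ranged from 437 to 686 CPM (median 546) in DGRP_892 and from 291 to 631 CPM (median 423) in Canton-S B. The log2 fold change was 0.37 ± 0.02 (SE, adjusted p = 2.12e-28), in a comparison in which 67.3% of genes differed and 30.9% were higher in DGRP_892. With spike-in scaling it was 0.34 (adjusted p = 0.00346). It was 0.31 ± 0.03 in males (adjusted p = 5.13e-15; 55.4% of genes passed) and 0.43 ± 0.03 in females (adjusted p = 3.43e-22; 60.2% passed). With spike-in scaling the male value was 0.23 and did not pass (adjusted p = 0.272), and the female value was 0.45 (adjusted p = 0.00949). The series means were apart as well, 9.09 ± 0.08 in DGRP_892, against 8.71 ± 0.14 log2 CPM in Canton-S B (exact permutation p = 0.0022, adjusted p = 0.0087), a separation upward that 12.2% of genes showed.

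The level of per was also higher in DGRP_892, but by an amount that depended on the hour. Over all times per ranged from 52.1 to 194 CPM (median 89.2) in DGRP_892 and from 32.7 to 167 CPM (median 75.2) in Canton-S B. The log2 fold change was 0.23 ± 0.05 (adjusted p = 8.17e-06), and it was 0.14 without replicate 3 (adjusted p = 0.0405) and 0.21 with spike-in scaling (adjusted p = 0.159). It was 0.34 ± 0.07 in females (adjusted p = 2.75e-06) and 0.11 ± 0.06 in males (adjusted p = 0.143). In males it ran from 0.02 without replicate 3 to 0.22 without replicate 2 (adjusted p = 0.852 and 0.0217), and it passed with the run of library numbers as a covariate (0.14, adjusted p = 0.0346). In females it did not pass with spike-in scaling (0.37, adjusted p = 0.0824). The test of males against females in that difference gave -0.23 ± 0.09 (adjusted p = 0.0839) for per and -0.11 ± 0.05 (adjusted p = 0.103) for tim, where 12.7% of genes passed. Leaving out the DGRP_892 male library with the highest per value, 194 CPM at CT16, moved the interaction of per to -0.27 (adjusted p = 0.0292); this library was singled out after its value was seen. The series means of per were 6.45 ± 0.11 in DGRP_892, against 6.22 ± 0.24 log2 CPM in Canton-S B and overlapped (exact p = 0.0519, adjusted p = 0.130).

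At single times, tim passed between the lines at 12 of 12, with log2 fold changes of 0.24 at CT4 to 0.56 at CT10. per passed at 4 of 12: CT2 (0.48 ± 0.16), CT6 (0.60 ± 0.16), CT8 (0.69 ± 0.16) and CT10 (0.59 ± 0.16), with adjusted p between 0.000435 and 0.0166. From CT14 to CT24 its values lay between -0.18 and 0.12 with SEs of 0.16, and none passed. Over all genes and the 12 times together, 13.6% of such tests passed with a higher level in DGRP_892. Without replicate 3, per passed at 2 times, CT6 and CT8, and tim at 8. With spike-in scaling, whose SEs were larger, per passed at 1 time and tim at 0.

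The libraries themselves show the same pattern. At CT6, per was 73.5 to 121.2 CPM (median 77.5) in the 6 DGRP_892 libraries and 47.6 to 68.7 CPM (median 56.2) in the 6 Canton-S B libraries, with no overlap, as for 6.65% of all genes in that direction at that time. At CT18, per was 88.6 to 123.6 CPM (median 102.4) in DGRP_892 and 78.5 to 141.3 CPM (median 122.4) in Canton-S B, and the ranges overlapped. per separated the lines at CT6 alone of the 12 times, while tim did so at CT6, CT10, CT16 and CT24, each time upward. For tim at CT10 the range was 479 to 563 CPM in DGRP_892 and 303 to 431 CPM in Canton-S B, where 6.18% of genes were apart upward, and at CT16 and CT24 that share was 5.59% and 5.55%. Over the 12 times together it was 5.50%.

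**Figure D3:**
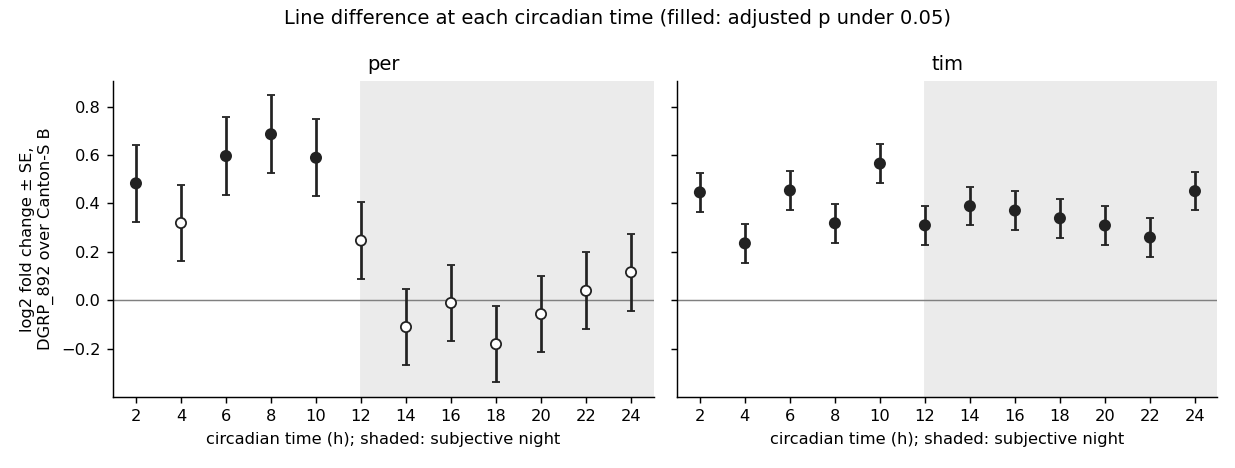
Log2 fold change of DGRP_892 over Canton-S B (y axis, ± SE, both sexes) at each circadian time in h for per (left) and tim (right); filled points have an adjusted p under 0.05 over all genes, and shading marks the subjective night. per is filled at CT2, CT6, CT8 and CT10 and close to 0 from CT14 on, and tim is filled at all 12 times.

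Both genes were higher in male than in female heads. per ranged from 41.4 to 194 CPM (median 89.8) in males and from 32.7 to 130.3 CPM (median 78.6) in females, a log2 fold change of 0.26 ± 0.05 (adjusted p = 3.08e-07). tim ranged from 374 to 686 CPM (median 516) in males and from 291 to 619 CPM (median 460) in females, a log2 fold change of 0.19 ± 0.02 (adjusted p = 6.37e-12). In this comparison 65.6% of genes differed, 35.9% upward and 29.7% downward in males. Spike-in scaling moved the median of all genes to 0.23, against 0.03 with TMM, with 48.3% of genes higher and 7.63% lower in males; on that scale per was at 0.46 and tim at 0.38, still above the median of all genes. Within DGRP_892 56.9% of genes differed between the sexes, and within Canton-S B 54.6%. The sex difference of per was 0.15 ± 0.06 in DGRP_892 (adjusted p = 0.0429) and 0.38 ± 0.06 in Canton-S B (adjusted p = 3.61e-07). The DGRP_892 value did not pass without replicate 2 (adjusted p = 0.227) or replicate 3 (adjusted p = 0.3), without the DGRP_892 male library of 194 CPM (0.107), without the filter on low counts (0.0685) or with spike-in scaling (0.30, adjusted p = 0.152). For tim it was 0.13 ± 0.03 in DGRP_892 (adjusted p = 0.000299) and 0.24 ± 0.03 in Canton-S B (adjusted p = 3.17e-10), and the DGRP_892 value did not pass with spike-in scaling (0.27, adjusted p = 0.137). per lies on chromosome X and tim does not, and whether this bears on their sex differences was not tested.

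Since PER and TIM act as a pair, the ratio of per to tim reads within each library was followed over the day; it does not depend on how libraries are scaled. In DGRP_892 the mean ratio stayed between 0.142 ± 0.0280 at CT12 and 0.200 ± 0.0551 at CT16 (SD, n = 6 each). In Canton-S B it ran from 0.111 ± 0.0141 at CT8 to 0.260 ± 0.0300 at CT16 and 0.260 ± 0.0330 at CT18. At CT18 the 6 DGRP_892 libraries ran from 0.149 to 0.218 and the 6 Canton-S B libraries from 0.205 to 0.294, and 1 of 36 pairs had the DGRP_892 library higher. At CT8, 32 of 36 pairs had the DGRP_892 library higher. These are the extremes of the 12 times. At the other times from CT2 to CT12 the number was 17 to 24 of 36, and at the others from CT14 to CT24 it was 3 to 12. The 36 pairs reuse the 6 libraries of each line.

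Averaged over CT14 to CT24 and set against CT2 to CT12, the log2 ratio was higher at night by 0.16 ± 0.08 in DGRP_892 and by 0.63 ± 0.20 in Canton-S B (SD, n = 6 series each). It was higher at night in 6 of 6 series of each line (exact sign-flip permutation p = 0.0312 each, the smallest possible; adjusted p = 0.0625). The DGRP_892 series ran from 0.07 to 0.27 and the Canton-S B series from 0.40 to 0.94, without overlap. The difference between lines was -0.47 (exact permutation p = 0.0022, adjusted p = 0.0087). Spike-in scaling left it at -0.47, which is no check, since the scaling of a library cancels in the ratio. Leaving out a replicate number gave -0.53 to -0.41. In the deeper libraries the night minus day difference was 0.25 in DGRP_892, against 0.71 in Canton-S B, and in the shallower ones 0.12 and 0.59. Over the whole day the log2 ratio was -2.64 ± 0.05 in DGRP_892, against -2.50 ± 0.11 in Canton-S B, a difference of -0.14 that did not pass after adjustment (exact p = 0.0238, adjusted p = 0.068) and that had an exact p of 0.0625 with series paired by number.

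**Figure D4:**
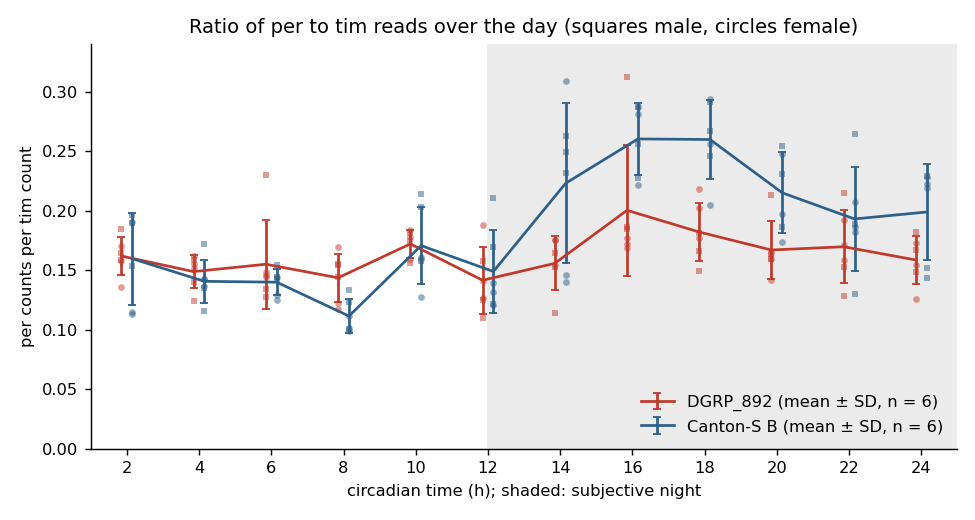
Ratio of per reads to tim reads in each library (y axis, from 0) against circadian time in h, DGRP_892 and Canton-S B; squares are male and circles female libraries, lines join means of 6 libraries and bars are SDs. The Canton-S B mean lies between 0.193 and 0.260 from CT14 on while that of DGRP_892 stays between 0.156 and 0.200.

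The partners of per and tim in the core loops all differed between the lines in level, 4 of 6 higher and 2 of 6 lower in DGRP_892. The repressor gene vri, whose protein shuts off Clk, was higher by 0.70 ± 0.05 (adjusted p = 1.16e-23). Pdp1, whose protein activates Clk, was higher by 0.34 ± 0.05, cyc, the partner of Clk, by 0.20 ± 0.03, and cwo, a repressor of CLK targets, by 0.14 ± 0.03. Clk, whose protein activates per and tim, was lower, with a log2 fold change of -0.47 ± 0.04, as was cry, the light receptor gene, with -0.45 ± 0.04. All 6 were past 0.05, as were 67.3% of all genes; with spike-in scaling cyc (0.17, adjusted p = 0.132) and cwo (0.12, adjusted p = 0.427) were not.

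In rhythm, 2 of the 6 partners passed in Canton-S B, where 6.01% of all genes did. They were vri (amplitude 0.24, peak CT 19.3 h, adjusted p = 0.00135), close in time to per, and Clk (0.17, CT 6.46 h, adjusted p = 0.00184), almost opposite to it. Without replicate 3 neither passed (adjusted p = 0.156 for vri and 0.174 for Clk), nor did they with spike-in scaling or in the deeper libraries alone. In DGRP_892, where 0.477% of all genes passed, only Clk did of the 6 (0.17, CT 4.21 h, adjusted p = 0.00889). Its call there was lost with spike-in scaling and in either depth class alone, and it did not on leaving out any 1 replicate number (adjusted p = 0.0751 to 0.344). vri had an amplitude of 0.13 there (adjusted p = 0.419), and 0.27 without replicate 1 (adjusted p = 0.0261). Pdp1 and cwo passed in Canton-S B with the run of library numbers as a covariate and in the batch-corrected values, at amplitudes of 0.10 to 0.11, and cwo also without replicate 2 (0.14, adjusted p = 0.0279). Line by time, which passed in 0.156% of all genes, did so in 0 of 6 by edgeR, with cwo alone under 0.05 before adjustment (adjusted p = 0.957 for each of the 6), and 0 of 6 by DESeq2.

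The proteins of 17 listed regulator genes act on PER or TIM protein, RNA or translation or, for Usp8, on CLK. Of the 17, 3 were higher and 5 lower in DGRP_892, where 30.9% of all genes were higher and 36.4% lower. The 5 with the lowest p were Lsm12a, whose protein works with the translation factor TYF (-0.21 ± 0.02), tyf itself (-0.15 ± 0.03), the PER kinase gene dco (0.09 ± 0.02), tws, a regulatory subunit of the phosphatase that acts on PER (-0.13 ± 0.04), and CkIIbeta, a subunit of casein kinase II (-0.12 ± 0.04). tws did not pass without replicate 3 (adjusted p = 0.0849), and CkIIbeta did not without replicate 1 or replicate 3 (adjusted p = 0.091 and 0.232). In the deeper libraries alone dco, tws and CkIIbeta did not pass, in the shallower ones tws and CkIIbeta did not, and with spike-in scaling Lsm12a alone of the 5 did. The median of the 17 was -0.03, against -0.02 for all genes. Between the sexes 8 of the 17 were higher and 1 lower in males, where 35.9% of all genes were higher and 29.7% lower, with a median of 0.05 against 0.03 for all genes.

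Of the 17, Usp8 alone passed for a rhythm, and it did so in both lines, 1 of 17 in each, where 0.477% of all genes passed in DGRP_892 and 6.01% in Canton-S B. Its protein removes ubiquitin from CLK, so none of the listed genes acting on PER or TIM passed in either line. The amplitude of Usp8 was 0.19 with a peak at CT 16.8 h in DGRP_892 (adjusted p = 0.000299) and 0.42 with a peak at CT 18.1 h in Canton-S B (adjusted p = 3.61e-19). In DGRP_892 it did not pass without replicate 1 or replicate 3 (adjusted p = 0.0963 and 0.219), with spike-in scaling (0.595) or in either depth class alone (0.763 deeper, 0.0651 shallower). The line by time difference of Usp8 was 0.25 (adjusted p = 0.00983), and it did not pass on leaving out any 1 replicate number (adjusted p = 0.0805 to 0.439), with spike-in scaling (0.999) or in either depth class alone (0.917 deeper, 0.413 shallower). The 4 next by p for line by time were tws, Psi, sgg and Atx2, with 0.11 to 0.14 (adjusted p = 0.957 each).

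**Figure D5:**
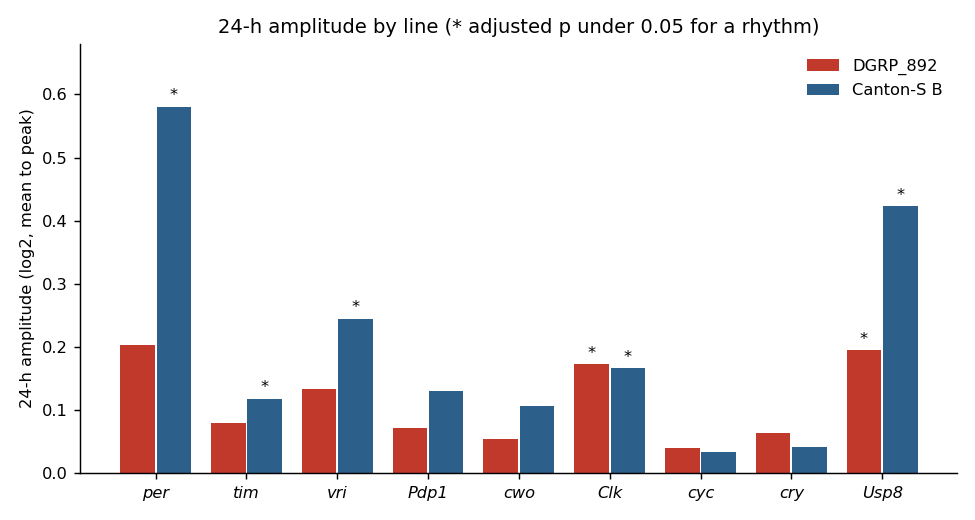
Amplitude of the 24-h cosine (log2, mean to peak; y axis from 0) in DGRP_892 (left bar) and Canton-S B (right bar) for per, tim, the 6 core partners and Usp8; a star marks a rhythm with an adjusted p under 0.05 over all genes. per has the tallest bar of the 9 genes in each line, 0.20 in DGRP_892, against 0.58 in Canton-S B, and Clk has nearly equal bars.

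The genes whose time courses were most like those of per and tim were ranked by Pearson's r over the 48 group means of log2 CPM, after the mean of each line and sex was subtracted, among 8137 other genes with a mean of at least 5 CPM. For per they were Slob, coding for a regulator of the potassium channel Slowpoke (0.881), gol, a ubiquitin ligase gene (0.871), vri (0.848), CG2017 (0.845) and the myosin gene Myo28B1 (0.834). For tim they were CG2017 (0.701), per (0.671), the endoplasmic reticulum stress sensor gene Ire1 (0.636), RNaseZ, which codes for an enzyme of tRNA processing (0.617), and the photoreceptor channel gene trp (0.608). tim ranked 32 for per while per ranked 2 for tim. Points of a group share 3 libraries and their depth, so these values describe likeness only.

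Heads are a mixture, and markers of their cell types moved with line and sex. The summed level of 10 photoreceptor genes was 73900 to 108000 CPM (median 91300) in DGRP_892 and 57000 to 85000 CPM (median 67400) in Canton-S B, most of it ninaE, the main opsin gene. Of the 10, 4 were higher and 5 lower in DGRP_892, where 30.9% of all genes were higher and 36.4% lower. The sum of 7 neuronal genes was 2090 to 6110 CPM (median 3530) in DGRP_892 and 2490 to 6410 CPM (median 3950) in Canton-S B, and that of 6 glial genes 2240 to 3710 CPM (median 2930) and 2350 to 3830 CPM (median 3100). The sum of 5 fat body genes was 7410 to 28600 CPM (median 15000) in DGRP_892 and 3410 to 12300 CPM (median 6000) in Canton-S B. Between the sexes, the photoreceptor sum had a median of 84100 CPM in males and 77000 CPM in females, the neuronal sum 4100 and 3270 CPM, the glial sum 3260 and 2760 CPM and the fat body sum 7640 and 13200 CPM. None of the markers was at 0 in any group. Their part in the line and sex differences of per and tim was not tested. Line by time passed in 0.156% of all genes, so few passes are to be looked for in short lists. By edgeR, 1 of the 10 photoreceptor genes passed, the opsin gene Rh5 (0.22, adjusted p = 0.0174). Of the 18 neuronal, glial and fat body genes 0 passed, also 0 of 18 at an unadjusted p under 0.05. The share of all genes at that unadjusted threshold was not computed.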

How the data were processed

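Strand-specific poly(A) RNA-seq libraries of fly heads with ERCC spike-in transcripts were used. Per the labels, the authors mapped reads to FlyBase release 6 plus the spike-in sequences and counted them by gene; tools listed in the submitters' processing notes are STAR 2.5.3a, featureCounts 1.5.2 and FastQC 0.11.5. The deposited main table holds raw read counts of 17381 genes and of 92 ERCC transcripts (0.387% of all counts, left out of library sizes and tests), and 1 empty column was not used. A second table deposited by the authors, batch-corrected values for 11525 genes, was treated as a score of no fixed range (3.31% of values below 0); it served as an alternative, as log2(value + 20) with values below 0 set to 0, tested with limma-trend. The correction method was not given in the sources used here.

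Symbols and coordinates came from the Ensembl release 115 annotation of the same assembly, which named 17239 genes. filterByExpr (minimum count 10, minimum total 15) kept 10894 genes with 99.97% of the counts. edgeR 4.0.16 (R 4.3.3; TMM, glmQLFit, glmQLFTest) was fitted to all 144 libraries, with Benjamini-Hochberg adjustment over all 10894 genes and a threshold of 0.05. Line and sex were contrasts of 48 group means, and rhythms the 24-h cosine and sine of each line and sex. An SE is the log2 fold change divided by the square root of F. Each series of 12 libraries had its cosine fitted (least squares, log2 CPM, prior count 2) and series were compared by exact permutation in Python 3.11.15; peaks were averaged after centring on their circular mean. Alternatives used DESeq2 1.42.0, limma 3.58.1, ERCC scaling, covariates and subsets of libraries. The edgeR fits with TMM, the curve fits of series and the permutation over splits were tested on simulated data. The sign-flip test, DESeq2, limma, ERCC scaling and the covariates were not. Figures were drawn with matplotlib 3.10.9.

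Depth classes are the 48 libraries above and the 96 below 20000000 counts. No pair of replicates within a group was a duplicate: over these 144 pairs, the chi-square per gene was at least 7.35. Pairs between groups were not checked. The labels call the replicates biological, from 3 runs of the procedure. Named genes were the members, the 6 core partners, the 5 regulators with the lowest p for line and for line by time, and the 5 genes most like each member. Members, lists and tests were chosen with earlier results of these data known. The lists name Lsm12, matched as Lsm12a.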

Additional observations from a re-analysis of the deposited data

Results flagged for a closer look

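Single libraries stood apart from the other 5 of their line and time in 8 of the 90 sets of 6 values looked at (levels, ratios and series measures), by the size of the gap to the nearest library against the whole range; chance gives about 1 in 20. In DGRP_892 the male replicate 3 library at CT16 had 193.5 CPM of per, against 91.1 to 106.6 CPM in the other 5, and a per to tim ratio of 0.312, against 0.169 to 0.187. The DGRP_892 male replicate 1 library at CT6 had 121.2 CPM of per, against 73.5 to 87.4 CPM, and a ratio of 0.23, against 0.128 to 0.148. The ratio of the DGRP_892 male replicate 2 library at CT14 was 0.114, against 0.152 to 0.175, and that of the male replicate 3 library at CT20 was 0.213, against 0.141 to 0.164. In Canton-S B the male replicate 2 library at CT22 had 166.6 CPM of per, against 58.4 to 96.4 CPM, and 631.0 CPM of tim, against 382.2 to 475.3 CPM. All 5 of these libraries were male. Each set of 6 pooled both sexes, and both genes were higher in males, which makes a male highest value more likely. The chance rate assumes sets of 1 kind and apart from each other, while the ratios reuse the per values.

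Effects that differed between the lines by a test of the difference itself were the 24-h course of per (0.38, adjusted p = 0.00409) and of Usp8 (0.25, adjusted p = 0.00983) in edgeR. By exact permutation of the series they were the amplitude of per (DGRP_892 minus Canton-S B, -0.37), the amplitude of the log2 ratio of per to tim (-0.32) and its night minus day difference (-0.47), each with an adjusted p of 0.0087. The ratio measures reuse the per values, so these are not independent results. Night minus day differed between the lines by -0.50 for per and -0.03 for tim (exact permutation p = 0.0043 and 0.463).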

How the results depend on the processing

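The tim line difference, the sex difference of both genes and the per rhythm in Canton-S B, each over both sexes or both lines, kept their direction and call under all 13 alternatives run for each. With ERCC scaling the line difference of per was 0.21 (adjusted p = 0.159), its line by time 0.46 (0.999) and its amplitude difference -0.23; the tim rhythm in Canton-S B was 0.15 (1.0), the tim peak difference 1.93 h, the tim amplitude difference 0.082, tim at CT16 -0.23 and per at CT18 0.022, per minus tim peak -1.52 h (exact p = 0.0088), and 1 (per) and 0 (tim) times passed between the lines. In the deeper libraries alone per line by time was 0.43, the line by sex values were 0.12 (per) and 0.02 (tim), and the tim rhythm in Canton-S B 0.14. The per rhythm in DGRP_892 passed at 0.21 with DESeq2 size factors, 0.20 without a filter, 0.21 in DESeq2 and 0.20 with the run covariate; that covariate put per at 0.062 (CT16), 0.0035 (CT20) and -0.017 (CT22), and the batch-corrected values put CT16 at 0.0092 and the tim peak difference at 0.57 h. Without the CT16 library the per line by sex value was -0.27. Plain totals gave a per peak difference of -0.21 h, and the 2-cosine curve a tim peak difference of 1.59 h and a per minus tim peak of 0.55 h.

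Males alone gave an amplitude difference of -0.26 for per and 0.022 for tim, a log2 ratio difference of -0.20, night minus day ratios of 0.16 (DGRP_892) and 0.53 (Canton-S B) and a difference of -0.36 between them. Females alone gave a per amplitude difference of -0.48, peak differences of -1.85 h (per) and 0.54 h (tim), a log2 ratio difference of -0.076, night minus day ratios of 0.15 and 0.73 and a difference of -0.57. With 3 series a group no exact p could go below 0.1.

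Leaving out 1 replicate number gave ranges of 0.15 to 0.26 for the per rhythm in DGRP_892, 0.32 to 0.45 for per line by time, 2 to 4 per times past the threshold, 0.12 to 0.12 for the tim rhythm in Canton-S B, -0.25 to 0.38 h and -1.46 to 0.78 h for the per and tim peak differences, -3.11 to -0.65 h for per minus tim peak, -0.19 to -0.093 for the log2 ratio difference, and 0.11 to 0.19 (DGRP_892) and 0.61 to 0.64 (Canton-S B) for its night minus day difference, where 4 series cannot go below an exact p of 0.125. Line differences of per at single times then ran from -0.29 to 0.025 at CT14, -0.25 to 0.18 at CT16, -0.29 to 0.087 at CT20, -0.14 to 0.30 at CT22 and -0.060 to 0.32 at CT24. The cause of these changes was not tested.

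Whether replicate numbers pair the libraries was not tested. Between the lines at the same sex and time, deviations of same-numbered libraries correlated by -0.709 to 0.535 (median 0.059, 29 of 72 over 0.1). Those of differently numbered ones did so by -0.693 to 0.801 (median -0.027, 29 of 144 over 0.1). The share over 0.1 was thus larger for the same number, with wide and overlapping ranges. Links by replicate number across times or between sexes were not looked at. As a block, the number left the edgeR calls of per and tim as they were (line by time of per 0.38, adjusted p = 0.00521), and series paired by number gave the log2 ratio difference, -0.14, an exact p of 0.0625.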
